A study of Caenorhabditis elegans with 9 samples.

Results

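The genes described here build, process or shed the apical extracellular matrix of the C. elegans epidermis. They comprise 31 genes chosen by name and every gene whose symbol is cutl- followed by a number. Each gene was read through the probe set that is annotated to it alone, and where it has several, through the one with the highest mean over 9 arrays. By this rule 59 of 17118 measured genes were members, the 31 named genes and 28 of 29 cutl- genes; cutl-23 was not measured through a probe set of its own. The signals are log2 values, so a difference of 1 is a doubling. The median over all probe sets was 4.82, and 34 members read above it and 25 below, among them 22 of the 28 cutl- genes.

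The study used mRNA tagging to look for targets of Wnt signaling in larval seam cells and vulval precursor cells. The Wnt pathway overactivation animals carried the transgenes deIs10 and huIs1 in a dpy-20(e1282) unc-30(e191) background, and huIs1 drives an N-terminally truncated BAR-1 β-catenin from a heat shock promoter. The Wnt pathway underactivation animals carried deIs26 in place of huIs1, a heat shock transgene for POP-1 (the worm TCF) without its N terminus. Both huIs1 and deIs26 also carry dpy-20(+). Both strains carry deIs10, 1 integrated line that expresses FLAG-tagged PAB-1 (poly(A)-binding protein) from a bar-1 enhancer active in seam and vulval precursor cells, together with unc-30(+) and ajm-1::gfp. The N2 control lacks the tag, the transgenes and both mutations, and went through the same immunoprecipitation. A comparison with N2 therefore contains the tag and the strain background, whereas overactivation and underactivation share both. All animals were heat shocked at the L2/L3 molt and collected after a recovery. Each group had 3 arrays, which were biological replicates by the methods. By their labels the overactivation arrays are replicates 1, 3 and 4, the underactivation arrays replicates 2, 4 and 5, and the N2 arrays replicates 2, 3 and 4, and values are listed in this order.

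The nematode cuticle is a collagen exoskeleton that epidermal cells, the seam among them, replace at every larval molt. Before the collagens are laid down, the cells secrete a transient matrix, or precuticle, of zona pellucida (ZP) domain proteins, lipocalins and leucine-rich repeat proteins. Procollagens are hydroxylated, folded and cleaved on the secretory route and later cross-linked through tyrosines, and release of the old cuticle needs protease inhibitors, endocytosis and sterol uptake. Many of these genes are expressed in a pulse around each molt, so their level depends on the stage within the molting cycle.

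The arrays differed in ways that touch these genes. For the actin array control, the 3′ minus 5′ signal, a measure of how much weaker the 5′ end of a transcript reads than its 3′ end, was 1.88, 2.25 and 1.47 in overactivation, 2.08, 0.90 and 2.35 in underactivation and 0.67, 0.80 and 0.91 in N2. The signal of hsp-70, a heat-inducible chaperone gene, ranged from 4.73 to 8.13 in overactivation, from 6.92 to 10.06 in underactivation and from 5.86 to 11.16 in N2. Summed over 10 body wall muscle markers the linear signal was 17753 to 26542 in overactivation, 20906 to 30437 in underactivation and 36738 to 41276 in N2, with 2 of the 10 called lower in overactivation than in N2. For 9 of 12 seam markers that were measured it was 9930 to 10689 in overactivation, 5513 to 7988 in underactivation and 5238 to 7111 in N2, and 0 of the 9 were called in overactivation against N2. In this comparison 6 of the 9 had a higher mean and 3 a lower one (blmp-1 -0.97, ceh-16 -0.83 and rnt-1 -0.10). The linear sum leans on the brightest markers, by mean signal grd-10 and grd-14. The study picked egl-18, elt-6, grd-3 and grd-14 as Wnt targets on these same arrays, so the sum is no separate measure of seam content. For 6 markers of the main hypodermis the summed signal was 9571 to 16830, 11719 to 15095 and 7837 to 12204 in the same order of groups, and overlapped. It was mostly the signal of dpy-13, the brightest of the 6 (mean log2 signal 13.2, next rol-6 with 9.8). The summed signals of 10 intestine markers overlapped between overactivation (1632 to 3245) and underactivation (1771 to 3485), and both lay below N2 (3615 to 5628, with 1 of the 10 called lower in overactivation). Those of 10 neuron markers (3246 to 4294 in overactivation, 3751 to 4900 in underactivation and 4829 to 6179 in N2) were separate from N2 only in overactivation, with 1 of the 10 called lower there. The germline markers, 4 in number, summed to 344 to 1111, 634 to 738 and 959 to 1298, again in that order. Of the genes carried by the heat shock transgenes, bar-1 averaged 10.47 ± 1.13 in overactivation and 9.26 ± 0.26 in N2 (SD, n = 3 each; limma adjusted p = 0.235) and pop-1 averaged 10.22 ± 1.52 in underactivation and 5.49 ± 0.83 in N2 (adjusted p = 0.0799).

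In overactivation against N2, 1 of the 59 members was called at an adjusted p under 0.05, the mucin-like gene dpy-6, which was higher, and 0 were called lower. Over all 17118 genes 0.976% were called higher and 0.596% lower. With an unadjusted p under 0.05, 15 members read higher and 1 lower, against 9.75% and 7.57% of all genes. In 16 members every overactivation array was above every N2 array, and in 1 member every one was below, against 12.7% and 7.83% of all genes. Among the 31 members outside the cutl- family, the mean was higher in overactivation in 26 (57.8% of all genes), the arrays did not overlap in 15, all of them higher, and the median log2 difference was 0.62. Among the 28 cutl- genes the mean was higher in 15, the arrays did not overlap in 1 higher and 1 lower gene, and the median was 0.04. The median over all genes was 0.07. Of the 34 members above the median signal 14 had overactivation arrays above all N2 arrays, against 15.6% of all genes above it. These are bulk samples, by the methods taken through an immunoprecipitation for a tag that N2 lacks. Fewer cells of a type, less RNA per cell and a difference in capture cannot be told apart in them.

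In underactivation against N2, 0 members were called, 24 of the 31 members outside the cutl- family had a higher mean (53.9% of all genes), and 0% of all genes passed in either direction. At an unadjusted p under 0.05, 8 members read higher and 2 lower, against 7.46% and 5.19% of all genes, and the arrays did not overlap in 4 higher and 2 lower members, against 9.4% and 6.44%. In overactivation against underactivation 0 members were called, and 0.00584% of all genes were called higher and 0% lower. With an unadjusted p under 0.05, 4 members had a higher mean in overactivation and 1 a lower one (all genes 2.86% and 3.05%), and the arrays did not overlap in 3 members with a higher mean (fbn-1, cut-1 and cutl-27) and 1 with a lower mean (cutl-18), against 6.82% and 5.26% of all genes. The median log2 difference over the 59 members was 0.23 for overactivation minus N2, 0.10 for underactivation minus N2 and 0.17 for overactivation minus underactivation, with medians over all genes of 0.07, 0.03 and 0.03. The comparisons with N2 share their control arrays.

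**Figure D1:**
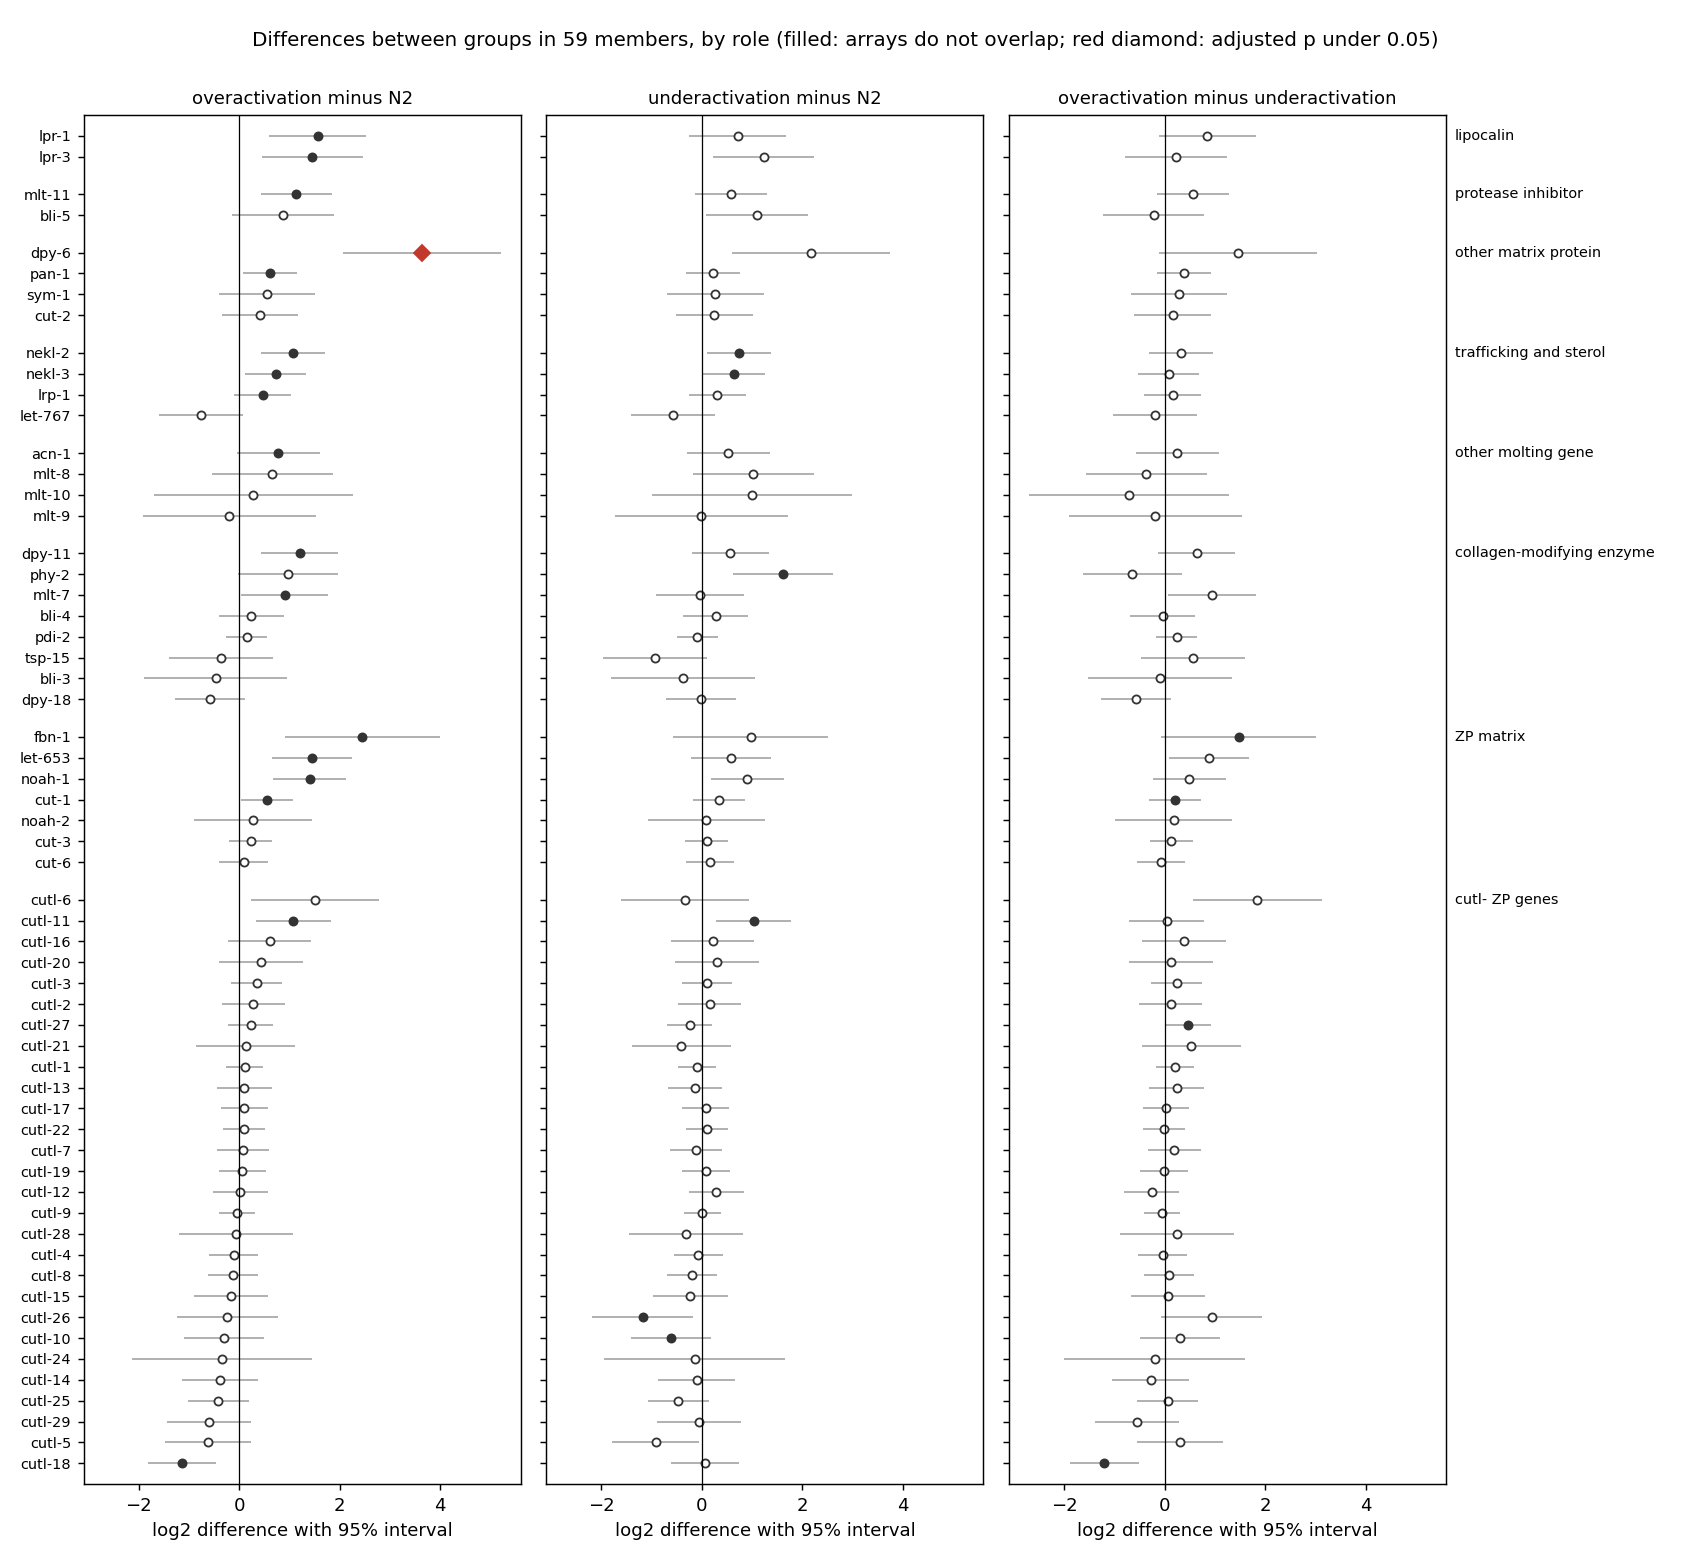
Log2 differences of all 59 members in the 3 comparisons (x axes, with 95% intervals from limma), with genes on the y axis grouped by role. Filled points mark genes whose arrays do not overlap between the groups compared, and the red diamond marks dpy-6 at 3.63, the only adjusted p under 0.05; the named genes sit mostly right of 0 in overactivation minus N2, and the cutl- genes lie on both sides.

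Among matrix proteins without a ZP domain, dpy-6 stood out. It encodes a mucin-like protein needed for normal body shape. Its signal was 10.30, 9.29 and 8.85 in overactivation, 8.49, 6.37 and 9.20 in underactivation and 6.39, 5.82 and 5.34 in N2. All overactivation arrays lay above all N2 arrays, and underactivation spread from the N2 level to the overactivation level, with replicate 4 just below the highest N2 array. The log2 difference between overactivation and N2 was 3.63 ± 0.69 (SE), or 12.4-fold, with a limma adjusted p of 0.0449. Underactivation differed from N2 by 2.17 ± 0.69 (adjusted p = 0.246) and overactivation from underactivation by 1.46 ± 0.69 (adjusted p = 0.906; 95% interval -0.11 to 3.04). The call rested on small margins: it held in 1 of 9 fits that each left out an array, the one without underactivation replicate 4, while the difference stayed between 3.22 and 3.94. The second probe set of dpy-6 gave 1.52 (adjusted p = 0.179), and with the actin 3′ minus 5′ signal as a covariate the first gave 1.98 (adjusted p = 0.798).

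The other matrix proteins without a ZP domain differed less. pan-1, a leucine-rich repeat transmembrane protein required for larval molting, read 9.27, 8.66 and 8.70 in overactivation, 8.82, 8.22 and 8.42 in underactivation and 8.27, 8.10 and 8.42 in N2. The overactivation arrays lay above those of N2, and underactivation overlapped both. The log2 difference from N2 was 0.62 ± 0.24 in overactivation (adjusted p = 0.218). sym-1, a secreted leucine-rich repeat protein of the apical matrix, and cut-2, a cuticlin of the insoluble cuticle, had differences between overactivation and N2 of 0.56 and 0.41 with overlapping arrays.

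ZP proteins polymerize into fibrils and form much of the precuticle. The 7 members of this role outside the cutl- family all had a higher mean in overactivation than in N2 (57.8% of all genes). In 4 of them every overactivation array was above every N2 array (12.7% of all genes). All 7 had a higher mean in underactivation than in N2 (53.9% of all genes), with overlapping arrays in every one. None of the 7 was called. noah-1, a precuticle protein of the epidermis related to Drosophila NompA, was among the brightest members, with 11.65, 12.29 and 11.64 in overactivation, 11.76, 10.76 and 11.58 in underactivation and 10.12, 10.46 and 10.80 in N2. Every overactivation array was above every N2 array, and underactivation replicate 4 alone fell among the N2 values. The log2 difference was 1.40 ± 0.32 for overactivation minus N2 (adjusted p = 0.0716) and 0.91 ± 0.32 for underactivation minus N2 (adjusted p = 0.29). Left without underactivation replicate 4, the fit called noah-1 in overactivation against N2. Its partner noah-2, another such ZP protein, differed by 0.27 ± 0.51 between overactivation and N2, with arrays from 6.79 to 8.35 in overactivation and from 6.65 to 8.04 in N2.

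fbn-1 encodes a fibrillin-related ZP protein that resists mechanical strain in the epidermis and pharynx. Its signal was 9.48, 8.86 and 7.96 in overactivation, 7.70, 6.33 and 7.87 in underactivation and 7.54, 5.03 and 6.40 in N2. Every overactivation array exceeded every underactivation array and every N2 array, although the margins were narrow and N2 alone spanned 2.50. The difference was 2.44 ± 0.68 for overactivation minus N2 (adjusted p = 0.108) and 1.47 ± 0.68 for overactivation minus underactivation (adjusted p = 0.898).

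let-653, a ZP protein of the precuticle that lines the excretory duct and the vulval lumen, read 6.66, 6.41 and 5.56 in overactivation, 5.45, 4.75 and 5.80 in underactivation and 4.59, 4.68 and 5.00 in N2. Overactivation was separate from N2 and touched underactivation through its replicate 4. The difference was 1.45 ± 0.35 for overactivation minus N2 (adjusted p = 0.0782) and 0.88 ± 0.35 for overactivation minus underactivation (adjusted p = 0.824). cut-1, a cuticlin known from the dauer alae, lay near the median signal, with 5.09, 4.91 and 4.80 in overactivation, 4.79, 4.71 and 4.66 in underactivation and 4.68, 4.56 and 3.89 in N2. Its overactivation arrays were above all others, by 0.21 on average over underactivation and by 0.56 over N2 (adjusted p = 0.246), and without N2 replicate 4 it exceeded N2 by 0.32. cut-3 and cut-6, further cuticlins, read at most 3.09 on any array and differed by 0.23 and 0.09 between overactivation and N2.

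**Figure D2:**
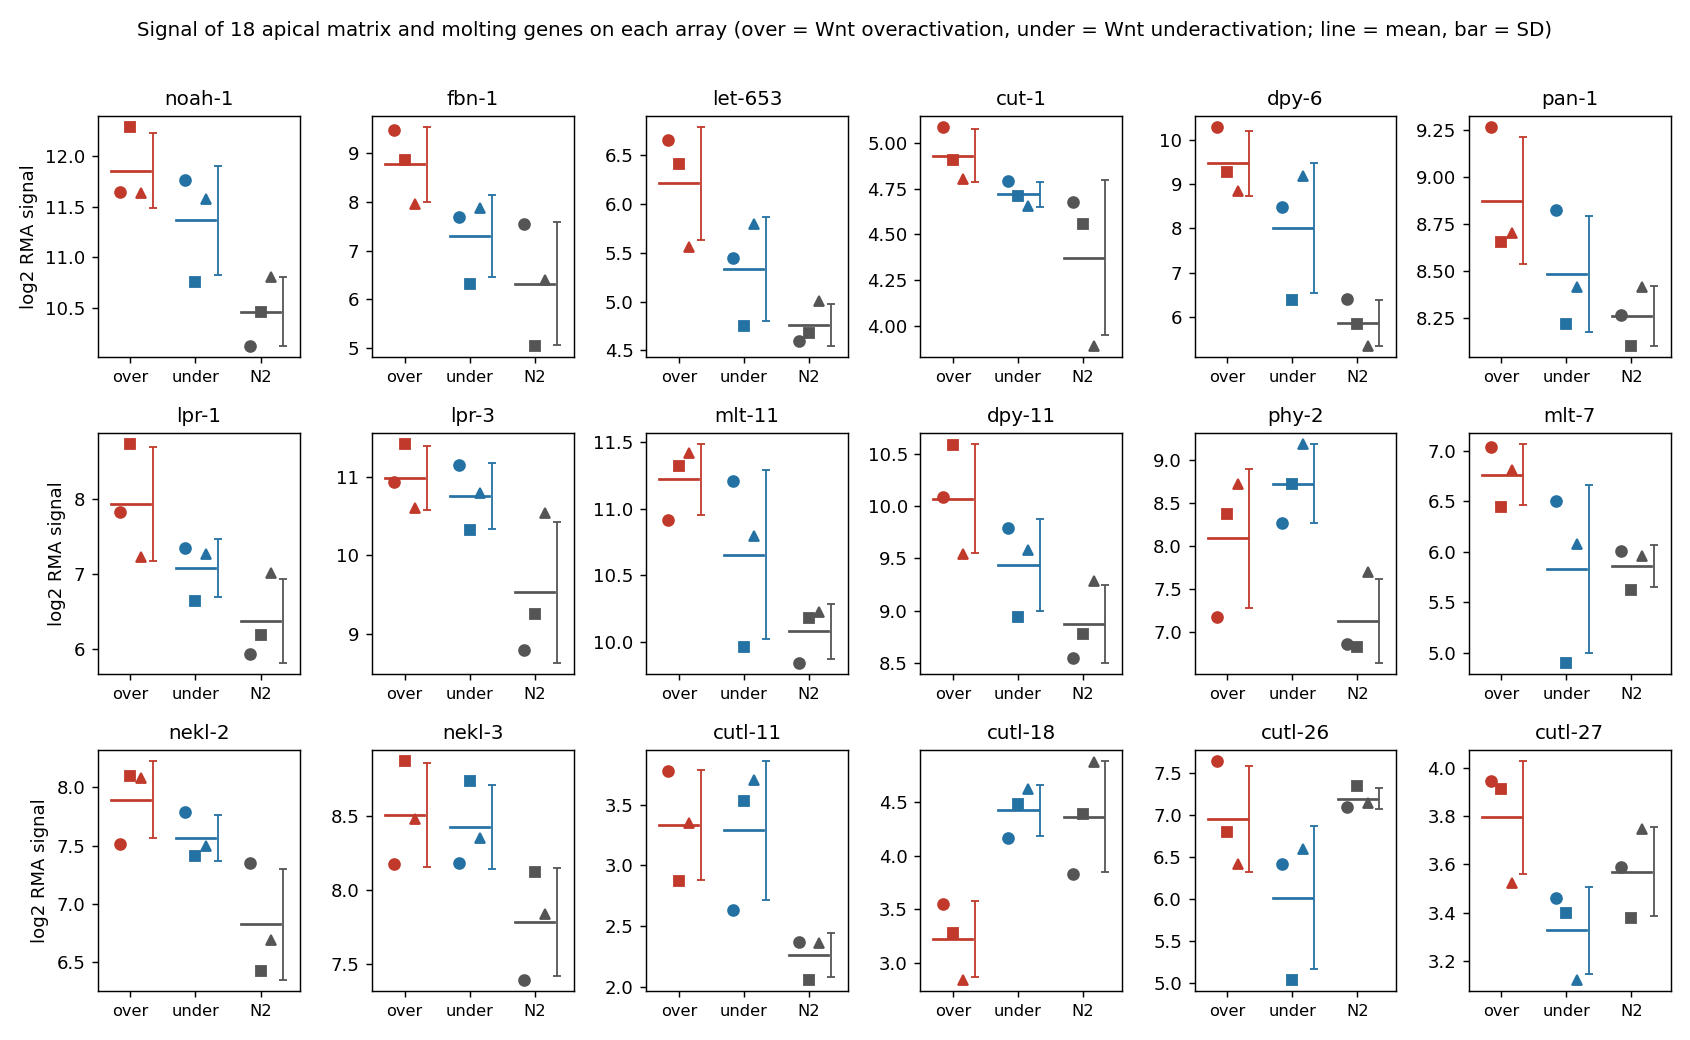
Log2 signal (y axes, 1 panel per gene with its own scale) of 18 members that passed the test, that the study names, or that had an unadjusted p under 0.05 with arrays that do not overlap, with Wnt overactivation left, underactivation in the middle and N2 right. Circle, square and triangle are the 3 replicates of a group in rising replicate number, lines are means and bars SDs; most panels descend in overactivation, underactivation and N2 order, phy-2 is highest in underactivation and cutl-18 is lowest in overactivation.

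Lipocalins carry small lipophilic molecules, and lpr-1 and lpr-3 keep narrow epithelial tubes such as the excretory duct open. lpr-1, which the study names among its targets from these arrays, read 7.84, 8.74 and 7.22 in overactivation, 7.35, 6.64 and 7.27 in underactivation and 5.93, 6.18 and 7.01 in N2. lpr-3, a lipocalin of the precuticle itself, was brighter, with 10.93, 11.42 and 10.61 in overactivation, 11.15, 10.31 and 10.79 in underactivation and 8.79, 9.25 and 10.53 in N2. In both genes the overactivation arrays were above all N2 arrays, and N2 replicate 4 came closest to them. lpr-1 differed between overactivation and N2 by 1.56 ± 0.43 (adjusted p = 0.105), and lpr-3 by 1.46 ± 0.44 (adjusted p = 0.134). Underactivation exceeded N2 by 0.71 for lpr-1 and by 1.23 for lpr-3. Overactivation exceeded underactivation by 0.85 (95% interval -0.12 to 1.82) for lpr-1 and by 0.23 (-0.78 to 1.24) for lpr-3. The study picked lpr-1 from these same arrays, so its direction is no independent evidence.

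The Kunitz-type protease inhibitors mlt-11 and bli-5 are needed to complete the molt. mlt-11, also chosen by the study on these arrays, read 10.92, 11.32 and 11.42 in overactivation, 11.21, 9.96 and 10.79 in underactivation and 9.84, 10.18 and 10.22 in N2. Overactivation was narrow and apart from N2, while underactivation ran from below 2 of the N2 arrays into the overactivation range. The difference between overactivation and N2 was 1.14 ± 0.31 (adjusted p = 0.107). bli-5 read 7.45, 8.06 and 6.73 in overactivation, 8.12, 7.39 and 7.39 in underactivation and 6.08, 6.15 and 7.39 in N2, and its arrays overlapped in each comparison. Its difference from N2 was 0.88 ± 0.45 in overactivation and 1.10 ± 0.45 in underactivation (adjusted p = 0.348 and 0.355).

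The role of collagen-modifying enzymes holds 8 genes, among them tsp-15, a tetraspanin gene counted with the enzyme it works with. Of the 8, 5 had a higher mean in overactivation than in N2 and 3 a lower one, near the 57.8% higher of all genes. The median log2 difference was 0.19 (all genes 0.07), and none was called. dpy-11, a thioredoxin-like membrane protein of the hypodermal secretory route and a target chosen by the study on these arrays, read 10.09, 10.59 and 9.54 in overactivation, 9.79, 8.94 and 9.58 in underactivation and 8.55, 8.78 and 9.28 in N2. Its overactivation arrays lay above N2, with overactivation replicate 4 close to the highest N2 array. The difference was 1.20 ± 0.34 for overactivation minus N2 (adjusted p = 0.111) and 0.64 ± 0.34 for overactivation minus underactivation (adjusted p = 0.906).

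Prolyl 4-hydroxylase, which stabilizes the collagen triple helix, contains the α subunits DPY-18 and PHY-2 and the β subunit PDI-2. phy-2 read 7.17, 8.38 and 8.72 in overactivation, 8.27, 8.72 and 9.19 in underactivation and 6.85, 6.82 and 7.69 in N2. All underactivation arrays were above all N2 arrays, by 1.61 ± 0.44 on average (adjusted p = 0.184), whereas overactivation replicate 1 fell within N2. Overactivation minus underactivation was -0.64 ± 0.44 (95% interval -1.63 to 0.35). dpy-18, the other α subunit, read 8.20, 9.23 and 8.37 in overactivation, 9.40, 9.01 and 9.12 in underactivation and 8.76, 9.36 and 9.44 in N2, a difference of -0.59 ± 0.31 between overactivation and N2 (adjusted p = 0.362). Its other probe sets gave 1.20 and -0.97. pdi-2 lay between 9.71 and 10.25 on all arrays, with a difference of 0.15 ± 0.18, and its second probe set gave -0.39, so neither gene had the same sign in all of its probe sets.

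Tyrosine cross-linking of the cuticle uses the dual oxidase BLI-3, the tetraspanin TSP-15 that works with it, and the peroxidase MLT-7. mlt-7, which the study followed by RNAi, read 7.04, 6.44 and 6.81 in overactivation, 6.50, 4.90 and 6.08 in underactivation and 6.01, 5.63 and 5.96 in N2. Overactivation was above N2 on every array and overlapped underactivation only through underactivation replicate 2. The difference was 0.90 ± 0.38 from N2 (adjusted p = 0.264) and 0.94 ± 0.38 from underactivation (adjusted p = 0.847), and underactivation differed from N2 by -0.04 ± 0.38. bli-3 read 5.48, 5.35 and 6.99 in overactivation, 6.24, 5.10 and 6.76 in underactivation and 5.60, 7.44 and 6.18 in N2. It spanned 1.64 within overactivation, 1.66 within underactivation and 1.84 within N2, and its difference between overactivation and N2 was -0.47 ± 0.63. tsp-15 differed by -0.36 ± 0.45 between overactivation and N2 and by -0.93 ± 0.45 between underactivation and N2 (adjusted p = 0.447), with overlapping arrays. bli-4, the proprotein convertase that cleaves procollagens, differed by 0.24 ± 0.28 between overactivation and N2 through the probe set taken.

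Molting needs endocytosis at the apical epidermal membrane. The kinases NEKL-2 and NEKL-3, related to mammalian NEK kinases, act there with ankyrin repeat proteins of the MLT family, and LRP-1 is a megalin-related receptor for sterols. nekl-2 read 7.51, 8.10 and 8.08 in overactivation, 7.79, 7.41 and 7.50 in underactivation and 7.35, 6.43 and 6.69 in N2. nekl-3 read 8.17, 8.87 and 8.48 in overactivation, 8.18, 8.74 and 8.35 in underactivation and 7.39, 8.12 and 7.84 in N2. In both kinase genes, every overactivation and every underactivation array was above every N2 array, and the 2 tagged strains overlapped. nekl-2 differed from N2 by 1.07 ± 0.28 in overactivation (adjusted p = 0.0929) and by 0.74 ± 0.28 in underactivation (adjusted p = 0.316), and it was called in overactivation against N2 when N2 replicate 2 was left out. nekl-3 differed from N2 by 0.72 ± 0.27 in overactivation (adjusted p = 0.2) and by 0.64 ± 0.27 in underactivation (adjusted p = 0.37). lrp-1 had overactivation arrays just above those of N2 (10.45 to 10.92 against 9.90 to 10.43), with a difference of 0.47 ± 0.25 (adjusted p = 0.373), and its second probe set had a difference of -0.55 (adjusted p = 0.574). let-767, a steroid dehydrogenase-related enzyme of lipid metabolism, had the lowest difference among the 31 genes outside the cutl- family, -0.77 ± 0.37 in overactivation against N2 (adjusted p = 0.32), with overlapping arrays.

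The other molting genes varied mostly within groups. acn-1, a protein related to angiotensin-converting enzyme that lacks the catalytic residues, read 10.98, 11.88 and 11.25 in overactivation, 11.70, 10.50 and 11.16 in underactivation and 10.14, 10.82 and 10.83 in N2, and overactivation lay just above N2 (difference 0.78 ± 0.36, adjusted p = 0.307). mlt-10, a molting gene with a sharp pulse in each larval stage, read 5.37, 7.49 and 5.11 in overactivation, 6.78, 6.29 and 7.03 in underactivation and 3.86, 5.98 and 7.28 in N2. mlt-9, another gene found by its molting defect, read 8.48, 10.82 and 10.18 in overactivation, 10.11, 10.06 and 9.85 in underactivation and 8.47, 10.21 and 11.38 in N2. mlt-8, a further one, read 8.80, 10.51 and 9.98 in overactivation, 10.03, 10.36 and 10.01 in underactivation and 8.37, 8.78 and 10.17 in N2. In all 3 mlt genes N2 replicate 2 was the lowest N2 array, N2 replicate 4 the highest and overactivation replicate 3 the highest of its group, and underactivation spread least. The range within N2 was 3.43 for mlt-10, 2.91 for mlt-9 and 1.80 for mlt-8, and within underactivation 0.75, 0.26 and 0.34. The differences between overactivation and N2, 0.28 ± 0.87, -0.20 ± 0.76 and 0.66 ± 0.53 in the same order, were smaller than these N2 ranges. mlt-8 and mlt-10 are near neighbours in the genome, with 4 protein-coding genes between them in the WBcel235 annotation.

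The same arrays recurred as extremes in other members. Among the 34 members above the median signal, N2 replicate 2 was the lowest N2 array in 21 and N2 replicate 4 the highest in 19, against 36.5% and 34.1% of all genes above it. Underactivation replicate 4 was the lowest of its group in 24 and replicate 2 the highest in 20 (all genes 36.8% and 29.8%), and overactivation replicate 3 was the highest of its group in 19 (31.7%). The median deviation of these 34 members from their own means was 0.02, 0.59 and 0.22 in overactivation, 0.29, -0.26 and 0.13 in underactivation and -0.56, -0.39 and -0.03 in N2. By this measure the lowest overactivation array, replicate 1, was just above N2 replicate 4, and underactivation overlapped both groups. Some array measures had the same extremes. The summed signal of the main hypodermis markers was highest in overactivation replicate 3 (16830) and underactivation replicate 2 (15095) within their groups, and among N2 arrays it was highest in replicate 4 (12204) and lowest in replicate 2 (7837). This sum is mostly the signal of dpy-13, itself a cuticle collagen gene, so it is not a measure separate from cuticle genes. Within its group, underactivation replicate 4 had the lowest actin 3′ minus 5′ signal (0.90) and seam sum (5513) and the highest body wall muscle sum (30437) and hsp-70 signal (10.06). The part of these measures in the members' values was not tested array by array. The median range of these members within a group was 1.04 in overactivation, 0.83 in underactivation and 0.90 in N2, against 0.77, 0.68 and 0.86 over all genes above the median signal.

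**Figure D3:**
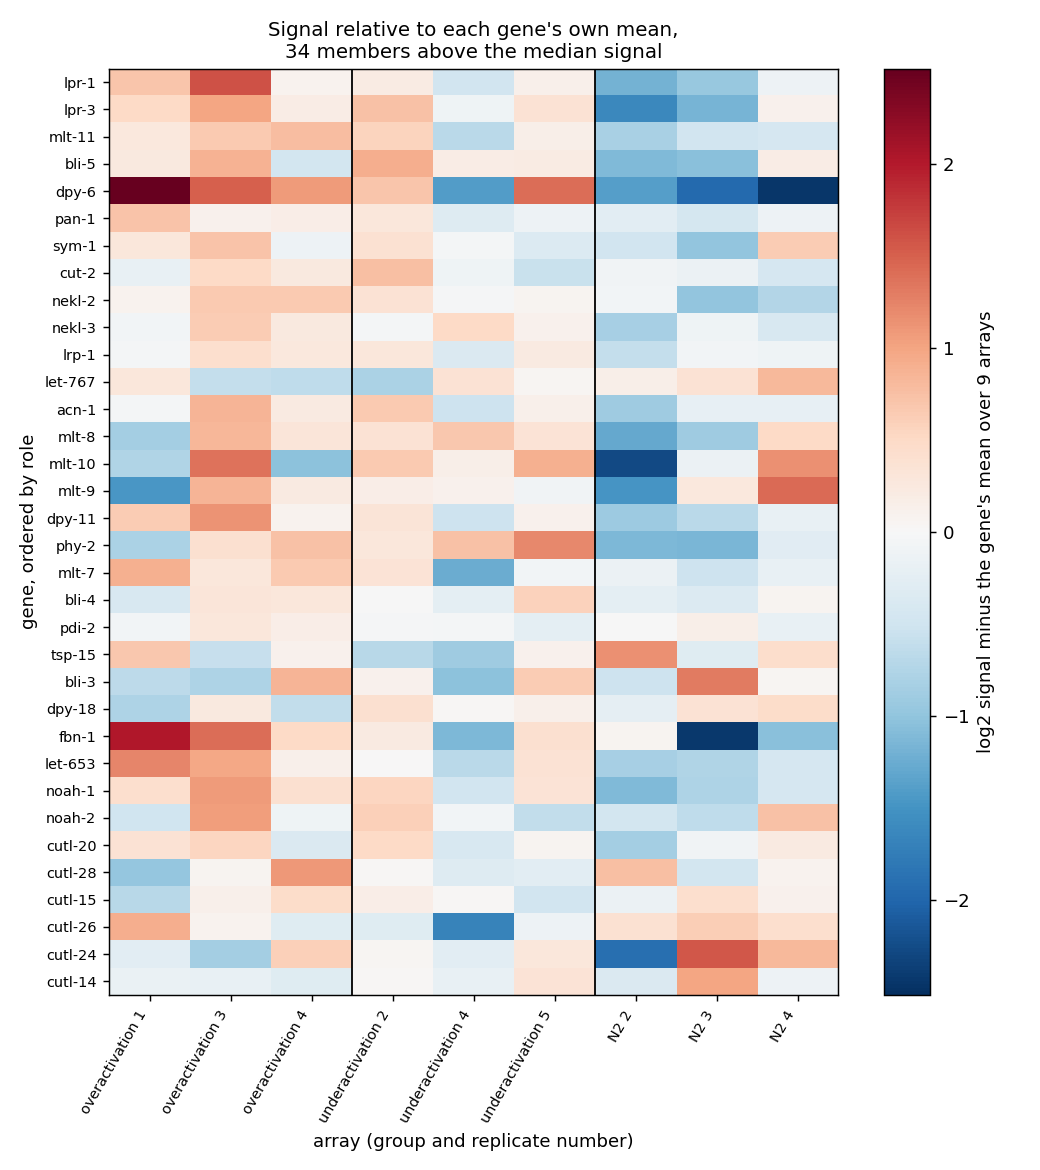
Log2 signal minus the gene's mean over 9 arrays (colour, red above and blue below) for the 34 members above the median signal (rows, ordered by role) on each array (columns, overactivation left, N2 right). N2 replicates 2 and 3 are mostly blue with median deviations of -0.56 and -0.39, overactivation replicate 3 is mostly red at 0.59, and underactivation replicate 4 is mostly blue at -0.26.

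The cutl- genes encode cuticlin-like ZP proteins. Most read low, and whether they were above background was not tested. A small difference at such signals does not show that a gene was unchanged. Only cutl-14, cutl-15, cutl-20, cutl-24, cutl-26 and cutl-28 read above the median signal. In overactivation against N2, 1 of these 6 had a higher mean, and their median log2 difference was -0.20. In the 22 below the median signal 14 had a higher mean, and the median difference was 0.08. None of the 28 was called, and in overactivation against N2 the differences ran from -1.14 to 1.51. cutl-18 had the lowest difference of all members: it read 3.55, 3.28 and 2.84 in overactivation, 4.16, 4.48 and 4.62 in underactivation and 3.83, 4.39 and 4.87 in N2. All overactivation arrays were below all arrays of both other groups, by -1.14 ± 0.30 against N2 (adjusted p = 0.0949) and by -1.20 ± 0.30 against underactivation (adjusted p = 0.475). cutl-11 was higher in both tagged strains, with 3.78, 2.87 and 3.35 in overactivation, 2.63, 3.53 and 3.71 in underactivation and 2.37, 2.05 and 2.36 in N2. Neither tagged strain overlapped N2 (1.07 ± 0.33, adjusted p = 0.135, and 1.03 ± 0.33, adjusted p = 0.245), at signals near the bottom of the scale.

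cutl-26, among the brighter genes of the family, read 7.65, 6.80 and 6.41 in overactivation, 6.42, 5.04 and 6.60 in underactivation and 7.10, 7.34 and 7.15 in N2. Underactivation was below N2 on every array, by -1.18 ± 0.44 (adjusted p = 0.312), and by -0.69 without underactivation replicate 4. cutl-27 read 3.95, 3.91 and 3.52 in overactivation, 3.46, 3.40 and 3.12 in underactivation and 3.59, 3.38 and 3.75 in N2. Overactivation was above underactivation on every array, by 0.47 ± 0.20 (adjusted p = 0.867), at a low signal. cutl-27 lies next to let-653 in the WBcel235 annotation, with 0 protein-coding genes between, and the matching difference of let-653 was 0.88. cutl-6, chosen after its values were seen, read 3.25, 5.79 and 5.12 in overactivation, 3.25, 2.76 and 2.61 in underactivation and 3.52, 2.99 and 3.10 in N2. Overactivation replicates 3 and 4 were well above every other array, and replicate 1 was not. The difference was 1.51 ± 0.56 from N2 (adjusted p = 0.201) and 1.85 ± 0.56 from underactivation (adjusted p = 0.656), and in the fit without overactivation replicate 1 cutl-6 was the only member called.

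Of the 20 members with several probe sets, 13 had the same sign for overactivation minus N2 in all of them and 7 did not. noah-1 (1.40 and 0.83), fbn-1 (2.44 and 0.61), lpr-3 (1.46 and 0.31), dpy-11 (1.20 and 0.19) and mlt-7 (0.90 and 0.66) kept the sign with a smaller difference in the second probe set. sym-1 (0.56 and 0.71, limma adjusted p = 0.0766 in the second), mlt-10 (0.28 and 0.93) and cutl-9 (-0.05 and -0.52) kept it with a larger one. pan-1 had -0.21 in its second probe set, which is nearly as bright as the first. mlt-11 had 1.14, 0.86, -0.16 and 0.41. Opposite signs were also found in dpy-18, pdi-2 and lrp-1, with the values given above, and in cutl-20 (0.43 and 0.50 against -0.38 and -0.06). None of these probe sets passed the threshold. In bli-4, a gene with several isoforms by alternative splicing, 4 of 9 probe sets had differences from -1.66 to -1.25 (adjusted p from 0.0679 to 0.2) and the other 5 from -0.26 to 0.24. The 4 lie at a mean signal of 4.89 to 6.32, below the 9.46 of the probe set taken. Underactivation minus N2 was also negative in these 4, from -1.28 to -0.82. Averaging all probe sets of a gene gave overactivation minus N2 differences of 1.53 for fbn-1, 0.88 for lpr-3, 0.70 for dpy-11, 0.56 for mlt-11 and 0.20 for pan-1. Several of these probe sets can match more than 1 transcript, and which isoform each reads is not given in the files.

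**Figure D4:**
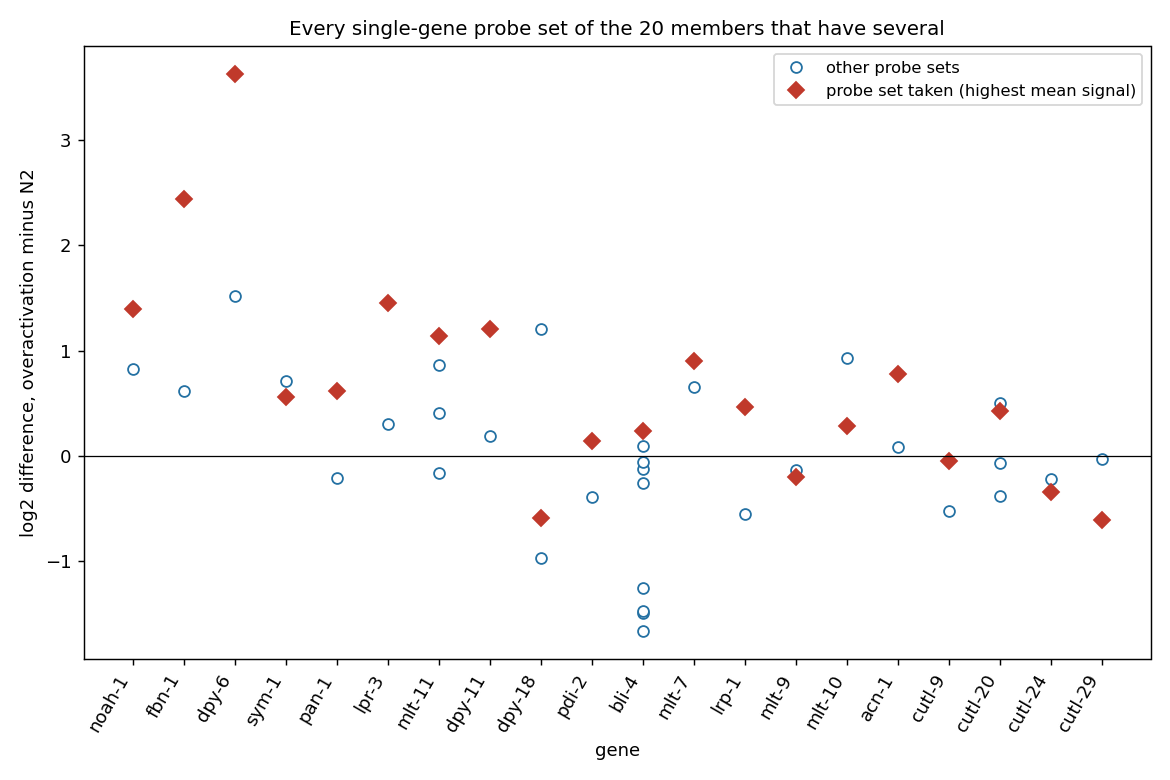
Log2 difference between overactivation and N2 (y axis) for every single-gene probe set of the 20 members that have several (x axis). Diamonds are the probe sets taken and open circles the others; dpy-6 is at 3.63 and 1.52, and bli-4 splits into 5 values near 0 and 4 between -1.66 and -1.25.

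The differences from N2 moved with the 3′ to 5′ balance of the arrays in many members. With the actin 3′ minus 5′ signal as a covariate, overactivation minus N2 was 1.36 for fbn-1, 0.61 for noah-1, 0.60 for let-653, 0.64 for lpr-1, 0.71 for lpr-3, 0.53 for mlt-11, 0.41 for dpy-11, 0.40 for pan-1 and 0.18 for mlt-7. nekl-2 (1.01), nekl-3 (0.85), cutl-11 (1.32) and cutl-18 (-1.34) moved by less than 1.5 times, and phy-2 in underactivation minus N2 kept 1.56. For cutl-26 the underactivation minus N2 difference was -2.14. The covariate is largely shared with the groups, since all N2 arrays and underactivation replicate 4 were at its low end, so its part and that of the groups cannot be told apart. With hsp-70 as a covariate overactivation minus N2 fell for dpy-6 (2.73, limma adjusted p = 0.149), fbn-1 (1.44), let-653 (1.20), nekl-2 (0.83), mlt-7 (0.71) and cut-1 (0.35). It fell less for lpr-1 (1.46), noah-1 (1.36), dpy-11 (1.10), cutl-11 (1.05) and pan-1 (0.59). For lpr-3 (1.69), mlt-11 (1.18) and nekl-3 (0.92) it rose. The part of the heat shock response was not tested further.

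Of 32 other genes of the pathway, 30 were measured, and through the probe sets taken none was called in any comparison. In overactivation against N2, 9 had a higher and 0 a lower mean with an unadjusted p under 0.05 (all genes 9.75% and 7.57%). In underactivation against N2 these were 8 and 0 (all genes 7.46% and 5.19%), and in overactivation against underactivation 0 and 0 (2.86% and 3.05%). Their median log2 differences were 0.50, 0.46 and 0.16 in this order, with medians over all genes of 0.07, 0.03 and 0.03. The ankyrin repeat partners of the NEKL kinases, mlt-2, mlt-3 and mlt-4, had higher means than N2 in both tagged strains. mlt-2 read 7.73, 7.65 and 7.98 in overactivation, 7.80, 7.0 and 7.76 in underactivation and 3.80, 6.51 and 5.60 in N2, so that both tagged strains were above all N2 arrays. It differed from N2 by 2.48 in overactivation (adjusted p = 0.0769) and by 2.22 in underactivation (adjusted p = 0.173). mlt-3 differed from N2 by 0.60 and 0.81 and mlt-4 by 0.54 and 0.85 in overactivation and underactivation, with adjusted p from 0.227 to 0.405, and a dimmer second probe set of mlt-4 had -0.38 in overactivation. nhr-25, a nuclear receptor required for molting that is also in the hypodermis marker list, differed by 1.17 in overactivation against N2 (adjusted p = 0.067) and by -0.60 in its second, dimmer probe set. ptr-4, a patched-related protein of the apical epidermis, differed by 1.29 (adjusted p = 0.0949) and by 0.24 in its second probe set. nhr-23, a nuclear receptor that drives the molting cycle and a target the study chose on these arrays, differed by -0.24 (adjusted p = 0.754) in the probe set taken and by 1.32 (adjusted p = 0.0497) in its second one, which is nearly as bright (mean signal 6.97 against 7.06), so its direction depends on the probe set. The lipocalin genes lpr-4, lpr-5 and lpr-6 were lowest in N2 replicate 2 and highest among N2 arrays in replicate 4, as the mlt genes above were. Overactivation minus N2 was positive in these lipocalin genes and negative in lpr-2 (-0.66) and lpr-7 (-0.38). The largest such difference was that of let-4 (2.52, adjusted p = 0.239), with 0.71 in its second, dimmer probe set. Its N2 arrays were far apart, at 3.09, 6.74 and 7.32. che-14, also a target the study chose on these arrays, had 2.18 (adjusted p = 0.155). In let-4 and che-14 all overactivation arrays were above all N2 arrays. Of the astacin proteases nas-36, nas-37 and dpy-31, which shed the old cuticle or cleave procollagen, none had arrays that did not overlap.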

How the data were processed

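The deposited log2 values of 9 arrays (Affymetrix C. elegans GeneChip) were used unchanged. The authors made these log2 values with Robust Multichip Average (RMA); per the submitters' processing notes Partek was used, in a version that the sources used here do not state. The labels describe cRNA from total RNA, the methods amplified cDNA from coimmunoprecipitated mRNA. Detection calls were not used, and arrays of the deIs10; scm::gfp strain were not analysed here. Columns of values not used numbered 0. Of 22548 probe sets (77 array controls left out), 20766 had 1 gene in the platform annotation, 887 several and 895 none, and dim probe sets were kept.

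A linear model with 3 groups was fitted with limma 3.58.1 in R 4.3.3 (empirical Bayes, 6 residual and 2.71 prior degrees of freedom), two-sided, with Benjamini-Hochberg adjustment over all probe sets at 0.05, after tests on simulated data. Plots were made with Python 3.11.15 and matplotlib 3.10.9. Residuals of 5 same-number array pairs correlated at -0.088 to 0.234 and of the other 22 pairs between groups at -0.197 to 0.211, so replicate numbers were not treated as pairs. Members and lists were chosen with earlier results of these data known. Values on each array are given for members that passed, members the study names, and members at an unadjusted p under 0.05 with arrays that do not overlap; partners in a pair or complex, and also cutl-6, the mlt genes, bli-5, acn-1, bli-3 and mlt-2 were added after their values were seen. The number of arrays limits the precision. Alternatives tried were quantile normalization, median centring, dropping dim probe sets (a share of 0.333 of all), no moderation, trend and robust moderation, only the groups compared, replicate blocks, array weights, the mean over probe sets, actin and hsp-70 covariates, and leaving out each array. Promoter sequences were not used here.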

Additional observations from a re-analysis of the deposited data

How the results depend on the processing

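Of 459 alternative values for the 18 members picked by the rule (the members added later were not run one by one), 442 kept their direction and side of the threshold, 15 fell below it, 2 passed it and 0 reversed. All 15 were values of dpy-6 in overactivation minus N2, the only result called in the main fit. For every other result, keeping its side of the threshold meant staying uncalled, so the 442 do not measure how stable the call was. The count of called members in overactivation against N2, 1 (dpy-6), was 0 under quantile normalization, no moderation, a fixed replicate block, array weights, the mean over probe sets and either covariate, and 0 to 2 members were called when an array was left out. With the random replicate block (correlation 0.063) that count remained 1. Neither replicate block called any other member in any comparison. Over all probe sets the random block called 249 higher and 219 lower in overactivation against N2. Members at an unadjusted p under 0.05 numbered 16 in overactivation against N2 (13 to 18 when an array was left out), and 5, of which 2 higher and 3 lower, with the actin covariate. In overactivation against underactivation they numbered 5 (2 to 8 when an array was left out), and 8 after median centring, 3 without moderation, 3 with only the groups compared, 9 with the fixed replicate block and 2 with the hsp-70 covariate. In underactivation against N2 they numbered 10 (5 to 12), and 5 without moderation, 5 with the fixed replicate block and 3 with the actin covariate. The median difference from N2 was 0.41 in overactivation and 0.27 in underactivation once dim probe sets (a share of 0.333) were left out, which keeps 41 of the 59 members, and 0.10 in overactivation and -0.12 in underactivation with the actin covariate; the mean over probe sets gave 0.12 in overactivation. Leaving out an array gave medians of 0.12 to 0.35 for overactivation minus N2, 0.06 to 0.25 for overactivation minus underactivation and 0.02 to 0.15 for underactivation minus N2, and 0 members called in the last 2 comparisons. For the other changes the cause was not tested. Calls over all probe sets in overactivation against N2, 196 higher and 156 lower, numbered 6 and 2 without overactivation replicate 3, 36 and 34 with only the groups compared, 0 and 3 without moderation, and 0 and 0 with the fixed block or either covariate. Low signals limit what can be said of most cutl- genes.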
